A study of Schizosaccharomyces pombe with 6 samples.

Results

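The 8 genes described here encode enzymes of sulfate assimilation and of methionine and S-adenosylmethionine synthesis in the fission yeast Schizosaccharomyces pombe. They are sua1, met14, met16, cys11, met6, met9, met11 and sam1. The genes were chosen by name for their place in the pathway, with earlier results of these data known. All 8 were found among the 6986 genes of the count table. Poly(A)+ RNA was sequenced from 3 wild type h+ libraries and from 3 libraries of a rad24 deletion strain, also h+, whose rad24 gene carries a NatMX replacement. Cells of both genotypes were in vegetative growth, sampled from log phase cultures grown at 30 °C in YES, a rich medium. Rad24 is a 14-3-3 protein, and each genotype was represented by 1 strain. Whether the libraries of a genotype come from separate cultures is not stated in the labels, and the p-values cover only the spread among these libraries.

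Sulfate enters the cell through transporters and is activated by ATP sulfurylase and then by a kinase, which gives phosphoadenylyl sulfate. This compound is reduced to sulfite and further to sulfide, which is joined to an acetylated serine to make cysteine or to an acetylated homoserine to make homocysteine. Homocysteine takes a methyl group from a reduced folate to become methionine, and methionine is turned into S-adenosylmethionine, the methyl donor of the cell. In yeasts these genes are known to respond to the supply of sulfur amino acids, partly through bZIP transcription factors controlled by an F-box protein, Zip1 and Pof1 in fission yeast.

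Wild type libraries held 11539278 to 15282140 counts in total and the deeper mutant libraries 19396868 to 21730112. The deleted gene rad24 had 18442 to 22565 counts per library in wild type and 15 to 39 in the mutant. Of the mating-type markers found by name, the P-cell gene map2 was at 5.14 ± 0.0173 CPM in wild type against 450.3 ± 50.4 CPM in the mutant (means with SD, n = 3), where CPM are counts per 1000000 counts of a library whose size was scaled by the TMM method. The other P-cell gene, map3, was also higher in the mutant. Markers of the other mating type moved in both directions: the M-cell receptor gene mam2 was at 35.5 ± 3.06 CPM in wild type against 4.31 ± 0.307 CPM in the mutant, while the M-factor genes mfm1, mfm2 and mfm3 were higher in the mutant, with log2 fold changes of 2.38, 2.42 and 0.70 (edgeR adjusted p = 3.19e-05, 2.77e-09 and 0.0358). In wild type, labelled h+, mam2 was thus above map2 and near map3, which was at 35.6 ± 3.87 CPM. In the mutant, also labelled h+, map2 and map3 were above mam2. Whether the strains differed in mating type was not tested. Whether these differences bear on the sulfur genes was not tested either. Every sulfur gene was well covered, with between 1267 and 31292 counts per library.

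Most of the 8 genes were lower in the rad24 deletion, while the gene of the first pathway enzyme was higher and met16 hardly changed. sua1 rose 1.70-fold, while met9 fell to 0.498 of its wild type level and met6, met11 and sam1 fell to between 0.607 and 0.617. met14 and cys11 fell by smaller amounts, and met16 did not pass the test. In edgeR's quasi-likelihood test, with p-values adjusted over all 6084 tested genes by the Benjamini-Hochberg method, 1 gene was called higher in the mutant and 6 were called lower (adjusted p below 0.05). The authors' deposited table, with larger standard errors, makes no call for sua1 (adjusted p = 0.106) or cys11 (adjusted p = 0.201). By the edgeR rule 78.3% of all tested genes were called, 40.9% higher and 37.4% lower. The median log2 fold change was -0.50 over the 8 genes and 0.02 over all tested genes.

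Differences of at least 1.5-fold with an adjusted p below 0.05 were found in 4 of the 8 genes on the lower side and in 1 on the higher side, where 13.5% and 15.1% of all tested genes passed in those directions. With libraries scaled by their totals alone, 1 of the 8 genes, met9, passed on the lower side and 1, sua1, on the higher side. With that scaling 568 of all 6084 tested genes passed on the lower side and 1297 on the higher side. In all 8 genes the libraries of one genotype lay on one side of those of the other, which was also the case for 80% of all tested genes. Counted from the most increased, sua1 ranked 639 of 6084 by log2 fold change and met9 ranked 5753. Together the 8 genes took 0.392% to 0.395% of all counts in the wild type libraries and 0.358% to 0.377% in the mutant libraries.

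**Figure D1:**
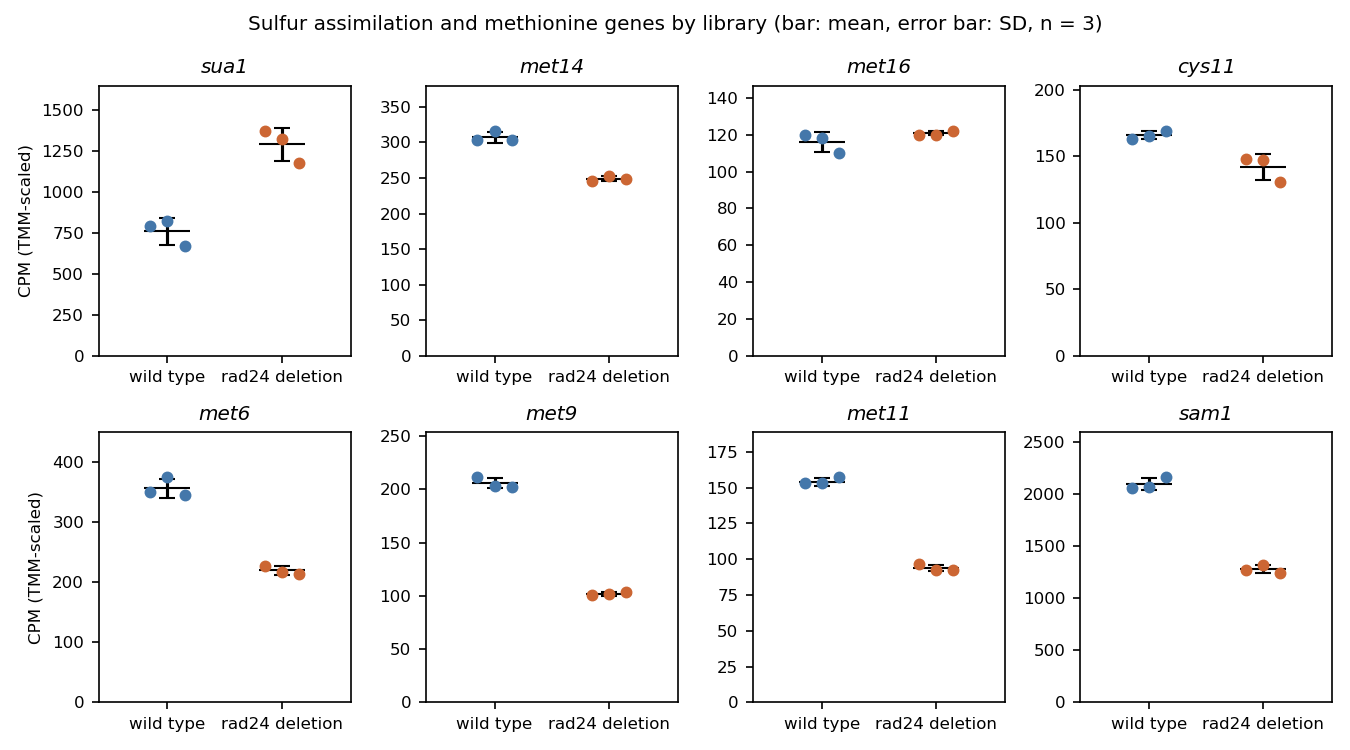
Level of each of the 8 genes in every library, in TMM-scaled CPM on axes that start at 0; points are libraries, the bar is the mean and the error bar the SD (n = 3). The sua1 points of the mutant lie above those of wild type, the met16 points nearly touch, and in the other 6 genes the mutant points lie below.

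Sulfate activation begins with sua1 (SPBC27.08c), the gene of sulfate adenylyltransferase, also called ATP sulfurylase. Its level was 793, 824 and 669 CPM in the wild type libraries, against 1373, 1326 and 1179 CPM in the mutant libraries. Every mutant library stood well above every wild type library, and the third library was the lowest of its genotype in both. The mean rose from 762 ± 82.3 to 1293 ± 101 CPM (SD, n = 3), a log2 change of 0.76 (SE 0.07, edgeR adjusted p = 4.40e-07). The spread of sua1 between libraries was the widest of the 8 genes, with a coefficient of variation of 10.8% in wild type and 7.83% in the mutant against a counting error of 1.01% and 0.599%.

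The next enzyme, adenylyl-sulfate kinase, is encoded by met14 (SPAC1782.11). The wild type libraries held 303, 316 and 303 CPM and the mutant libraries 246, 253 and 249 CPM. The groups did not overlap, and the libraries of each genotype were close to each other. The log2 fold change was -0.30 (SE 0.03, edgeR adjusted p = 2.00e-06), a fall from 307 ± 7.24 to 249 ± 3.44 CPM. The genes of both activation steps thus moved in opposite directions.

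Phosphoadenosine phosphosulfate reductase, which makes sulfite, is encoded by met16 (SPAC13G7.06). Its level was 119.9, 118 and 110.0 CPM in wild type against 120.0, 119.9 and 122 CPM in the mutant. The highest wild type and the lowest mutant library were at 119.9 and 119.94 CPM, so the groups were separated by almost nothing. The log2 fold change of 0.06 (SE 0.04) did not pass the test (edgeR adjusted p = 0.171).

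Since sua1 and met14 encode consecutive steps, their counts were compared within each library, where the scaling between libraries cancels. This comparison was added after the values were seen. The log2 ratio of sua1 to met14 counts was 1.39, 1.39 and 1.14 in wild type, against 2.48, 2.39 and 2.24 in the mutant libraries. The ratio was higher in all 3 mutant libraries than in any wild type library, by 1.07 on the log2 scale or 2.09-fold. A two-sided exact permutation test over the libraries gave p = 0.1, the smallest value that 3 against 3 libraries allow, so this test could not reach 0.05. Transcript lengths were not used, so the ratio says how the balance differed between the genotypes and not which transcript was more abundant.

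The cysteine synthase gene cys11 (SPBC36.04), whose product joins sulfide to an acetylated serine, was modestly lower in the mutant. Its level was 163, 165 and 169 CPM in wild type against 148, 147 and 131 CPM in the mutant. The third mutant library stood below the other two, and all 3 lay below the wild type range. The mean fell from 166 ± 3.15 to 142 ± 9.60 CPM (log2 change -0.23 with an SE of 0.04, edgeR adjusted p = 0.000355). When libraries were scaled by their totals alone, the call was lost, with a log2 change of -0.06 (edgeR adjusted p = 0.199). With that scaling the median of all genes was 0.19, so cys11 was below the median there as well.

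Homoserine O-acetyltransferase, encoded by met6 (SPBC56F2.11), prepares homoserine for the uptake of sulfide. The wild type libraries held 350.4, 375 and 345 CPM and the mutant libraries 228, 218 and 214 CPM. The groups were far apart relative to the spread within each. The mean fell from 357 ± 15.7 to 220.0 ± 6.77 CPM (log2 change -0.70 with an SE of 0.04, edgeR adjusted p = 2.14e-09).

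The largest fall among the 8 genes under the main scaling was that of met9 (SPAC56F8.10). It encodes a methylenetetrahydrofolate reductase, the enzyme that makes the methyl folate used to methylate homocysteine. Its level was 211, 203 and 202 CPM in wild type against 101, 102 and 104 CPM in the mutant. Each mutant library was close to 0.498 of the wild type level, with little spread (log2 change -1.01 with an SE of 0.03, edgeR adjusted p = 4.45e-12). A fall of at least 2-fold at this threshold was seen in 5.52% of all tested genes.

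The second gene for this reaction, met11 (SPAC343.10), also fell. The wild type libraries held 153, 153 and 157 CPM and the mutant libraries 96.3, 92.6 and 92.4 CPM. The groups did not overlap, and the libraries of each genotype agreed to within a coefficient of variation of 2.33%. The mean went from 154 ± 2.63 to 93.8 ± 2.18 CPM (log2 change -0.72 with an SE of 0.03, edgeR adjusted p = 1.42e-10).

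Both genes were also compared within each library. The log2 ratio of met11 to met9 counts was -0.46, -0.42 and -0.36 in wild type, against -0.06, -0.14 and -0.18 in the mutant libraries. All mutant libraries were above all wild type libraries, and the means differed by 0.29 on the log2 scale or 1.22-fold. The two-sided exact permutation test gave p = 0.1, again the smallest value possible with 3 against 3 libraries.

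**Figure D2:**
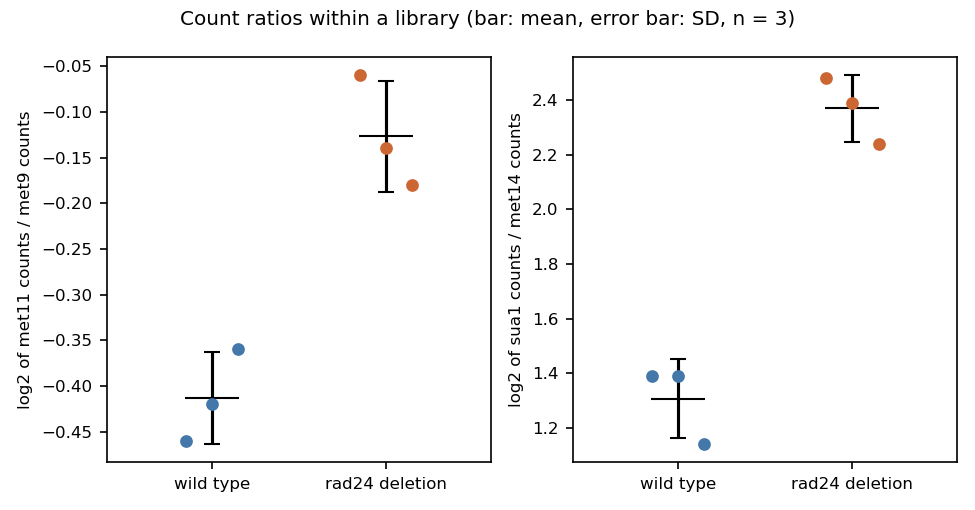
Log2 ratio of the counts of met11 to met9 (left) and of sua1 to met14 (right) within each library; points are libraries, the bar is the mean and the error bar the SD (n = 3). Both ratios are higher in every mutant library, by 0.29 for met11 to met9 and by 1.07 for sua1 to met14.

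S-adenosylmethionine synthetase, encoded by sam1 (SPBC14F5.05c), makes the methyl donor from methionine and ATP. Its level was 2056, 2066 and 2159.6 CPM in wild type against 1272, 1321 and 1245 CPM in the mutant. The lowest wild type library stood far above the highest mutant library. The mean fell from 2094 ± 57.1 to 1279 ± 38.3 CPM (log2 change -0.71 with an SE of 0.05, edgeR adjusted p = 6.15e-09). As a share of all counts before TMM scaling, sam1 took 0.192% to 0.207% in wild type and 0.133% to 0.139% in the mutant.

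**Figure D3:**
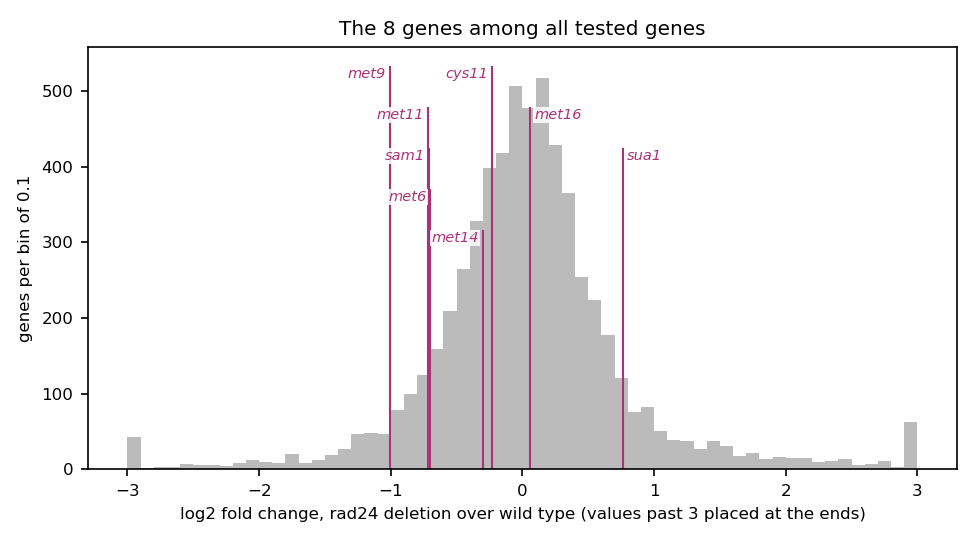
Histogram of the log2 fold change of the mutant over wild type for all 6084 tested genes in bins of 0.1, with values past 3 placed at the ends and the 8 genes marked by lines. The lines of met9, met11, sam1, met6, met14 and cys11 lie left of the centre, met16 lies near it, and sua1 at 0.76 stands alone on the right.

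The size of the error depended on its source. The fold changes in the authors' deposited table were within 0.01 of those above on the log2 scale, but its standard errors were 1.14 to 5.66 times as large for the 8 genes, with a median of 1.67 over all tested genes. For sua1 the authors' deposited table gives a log2 fold change of 0.76 with a standard error of 0.42 and an adjusted p of 0.106. For cys11 the authors' deposited table gives -0.23 with a standard error of 0.15 and an adjusted p of 0.201, and for met14 it gives -0.30, 0.14 and 0.0477. In the authors' deposited table, 5 of the 8 genes passed an adjusted p of 0.05, all of them lower, where 59% of its 6689 genes with an adjusted p passed, 29% lower and 30% higher. The calls of sua1 and cys11 are therefore not shared by both sources. Which libraries entered the authors' fit is not stated in the sources used here, so its p-values may not refer to the same 6 libraries. DESeq2 run on the 6 deposited count columns gave sua1 a log2 fold change of 0.74 with a standard error of 0.07 (adjusted p = 1.42e-23).

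**Figure D4:**
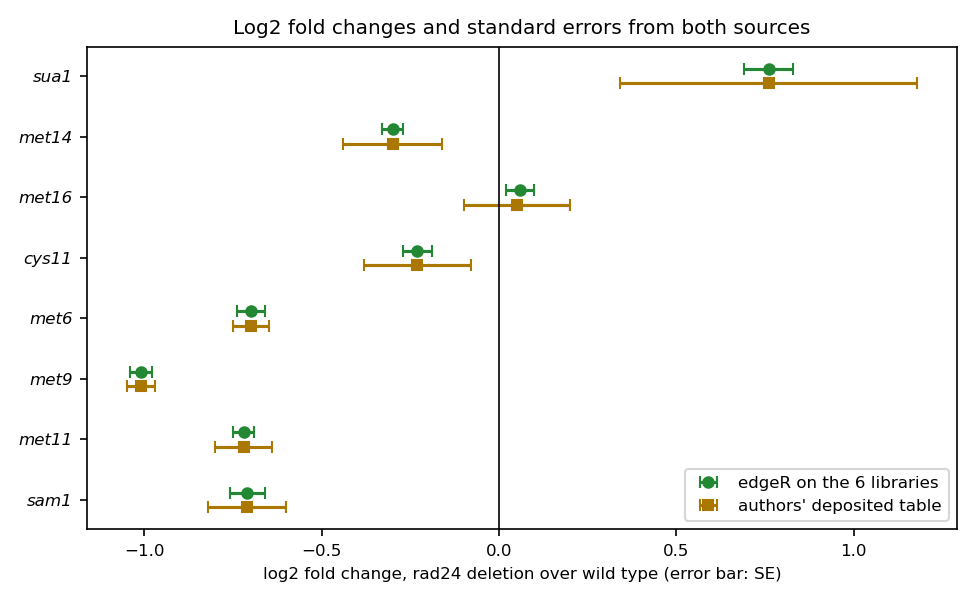
Log2 fold change of the mutant over wild type for each of the 8 genes with its SE, from edgeR on the 6 libraries (circles) and from the authors' deposited table (squares). The points coincide, and the bars of the authors' deposited table are longest for sua1, at 0.42 against 0.07.

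Other genes of the pathway were taken from a list of 37 entries, of which 30 separate genes were kept. All 30 were tested, and edgeR called 12 of them higher and 12 lower, beside the 40.9% and 37.4% of all tested genes called in those directions. With upper quartile factors 15 were called higher and 11 lower, and with library size only 17 and 9. Over all 6084 tested genes, upper quartile factors gave 2966 higher and 1885 lower, and library size only gave 3267 and 1607. The median log2 fold change of the list was -0.02 against 0.02 over all tested genes. The median of the list lay near that of all genes, and its members moved in both directions. By the adjusted p in the authors' deposited table, 17 of the 30 genes passed 0.05, and of these 7 were higher and 10 lower, beside the 59% of all genes that passed there, 30% higher and 29% lower.

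All 3 uptake genes of the list rose, where 40.9% of all tested genes were called higher. The other gene described as a predicted cysteine transporter, SPBPB10D8.01, is not on the list and was looked up after its values were seen. It fell from 22.7 ± 1.32 to 6.68 ± 0.451 CPM (log2 change -1.77, edgeR adjusted p = 5.04e-10), a larger change than any of the 3 rises. The predicted cysteine transporter gene SPCPB1C11.03 rose from 24.9 ± 2.62 to 49.6 ± 3.91 CPM (log2 change 1.00 with an SE of 0.08, edgeR adjusted p = 4.33e-08). The predicted sulfate transporter genes named sul1 and sul2 in the reference annotation (SPBC3H7.02 and SPAC869.05c) had log2 fold changes of 0.40 and 0.25 (edgeR adjusted p = 2.23e-07 and 7.23e-05). The authors' deposited table gives an adjusted p of 0.0673 for sul1.

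In the reduction branch, met10, the gene of the flavoprotein subunit of sulfite reductase, fell from 279 ± 20.0 to 195 ± 5.95 CPM (log2 change -0.51, edgeR adjusted p = 2.19e-07). The gene of its partner subunit, sir1, had levels of 782 ± 53.1 and 744 ± 30.8 CPM and was not called (log2 change -0.07, edgeR adjusted p = 0.221). The siroheme genes met1 and met8, which supply the cofactor of that enzyme, had log2 fold changes of -0.20 (edgeR adjusted p = 0.00396) and 0.03 (edgeR adjusted p = 0.504). The call of met1 was lost with scaling by library size only, at -0.04, and with upper quartile factors, at -0.10. tol1, which encodes the phosphatase that removes the phosphoadenosine by-product of sulfate reduction, had a log2 fold change of 0.10 (edgeR adjusted p = 0.0108) and lost its call with DESeq2. Its adjusted p in the authors' deposited table is 0.246.

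Genes of the same or a neighbouring reaction as cys11 and met6 moved in both directions. cys2 was placed under cysteine in the list, while the authors' deposited table describes it as a predicted homoserine O-acetyltransferase, the reaction of met6. Which of these roles it has was not tested. The level of cys2 rose from 81.0 ± 3.33 to 119 ± 4.27 CPM (log2 change 0.55 with an SE of 0.04, edgeR adjusted p = 2.39e-08). The cysteine synthase-like gene cys12 had a log2 fold change of -0.03 (edgeR adjusted p = 0.65). The homocysteine synthase gene met17 had a log2 fold change of 0.14 (edgeR adjusted p = 0.00512), a call lost with DESeq2. For met17 the authors' deposited table gives an adjusted p of 0.694. The homocysteine methyltransferase gene met26 fell from 5124 ± 44.7 to 4266 ± 92.9 CPM (log2 change -0.26, edgeR adjusted p = 0.000193).

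The genes that supply homoserine fell together with met6. The predicted aspartate kinase gene hom3 fell from 440.3 ± 17.5 to 230.3 ± 3.47 CPM (log2 change -0.94 with an SE of 0.04, edgeR adjusted p = 5.72e-11). The aspartate semialdehyde dehydrogenase gene hom2 fell from 659 ± 18.7 to 433 ± 5.47 CPM (log2 change -0.60) and the homoserine dehydrogenase gene hom6 from 529.9 ± 6.47 to 422 ± 11.1 CPM (-0.33). All 3 were called lower, as were 37.4% of all tested genes, and these names come from the reference annotation. Of the 4 folate genes 3 fell with TMM scaling, where 37.4% of all tested genes were called lower. The largest change among them was in ade9, whose product interconverts folate-bound carbon units, from 269.9 ± 16.8 to 152 ± 6.21 CPM (log2 change -0.83, edgeR adjusted p = 1.29e-09). The serine hydroxymethyltransferase genes shm1 and shm2 had log2 fold changes of -0.36 and -0.19, and met7, which encodes folylpolyglutamate synthase, had -0.01 (edgeR adjusted p = 0.862). met7 was called higher with upper quartile factors, at 0.09 (edgeR adjusted p = 0.0384), and with library size only, at 0.16 (edgeR adjusted p = 0.00177). The call of shm2 was lost with scaling by library size only, at -0.02, and the authors' deposited table gives it an adjusted p of 0.426.

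Of the methyl cycle genes on the list, the adenosine kinase gene ado1 was not called (log2 change 0.02, edgeR adjusted p = 0.611), and the predicted methylthioadenosine phosphorylase gene SPAC16C9.02c had -0.20, a call lost with scaling by library size only. For SPAC16C9.02c the authors' deposited table gives an adjusted p of 0.211. In glutathione synthesis gcs1, the gene of glutamate-cysteine ligase, fell from 282 ± 5.07 to 205 ± 2.93 CPM (log2 change -0.46, edgeR adjusted p = 1.72e-08), while the glutathione synthetase gene gsa1 had 0.12. The phytochelatin synthase gene pcs2 (0.32) and the sulfide-quinone oxidoreductase gene hmt2 (0.19) were also called higher on the log2 scale. The authors' deposited table gives an adjusted p of 0.276 for gsa1 and 0.057 for hmt2. Both methionine sulfoxide reductase genes changed, in opposite directions. mxr1, for the S form, rose from 28.2 ± 2.23 to 50.9 ± 1.78 CPM (log2 change 0.84), and mxr2, for the R form, fell from 78.4 ± 3.73 to 58.9 ± 3.18 CPM (log2 change -0.41).

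The mRNA of the transcription factor gene zip1 was at 440.4 ± 10.9 CPM in wild type against 431 ± 2.81 CPM in the mutant (log2 change -0.03, edgeR adjusted p = 0.456). Scaled by library size only it was called at 0.13 (edgeR adjusted p = 0.00411), below the median of all genes under that scaling. pof1, which encodes the F-box protein that targets Zip1, had a log2 fold change of 0.11 (edgeR adjusted p = 0.0114), a call lost with DESeq2, and skp1, of the same ubiquitin ligase, had 0.30 (edgeR adjusted p = 1.19e-05). These are mRNA levels, and protein levels were not measured.

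**Figure D5:**
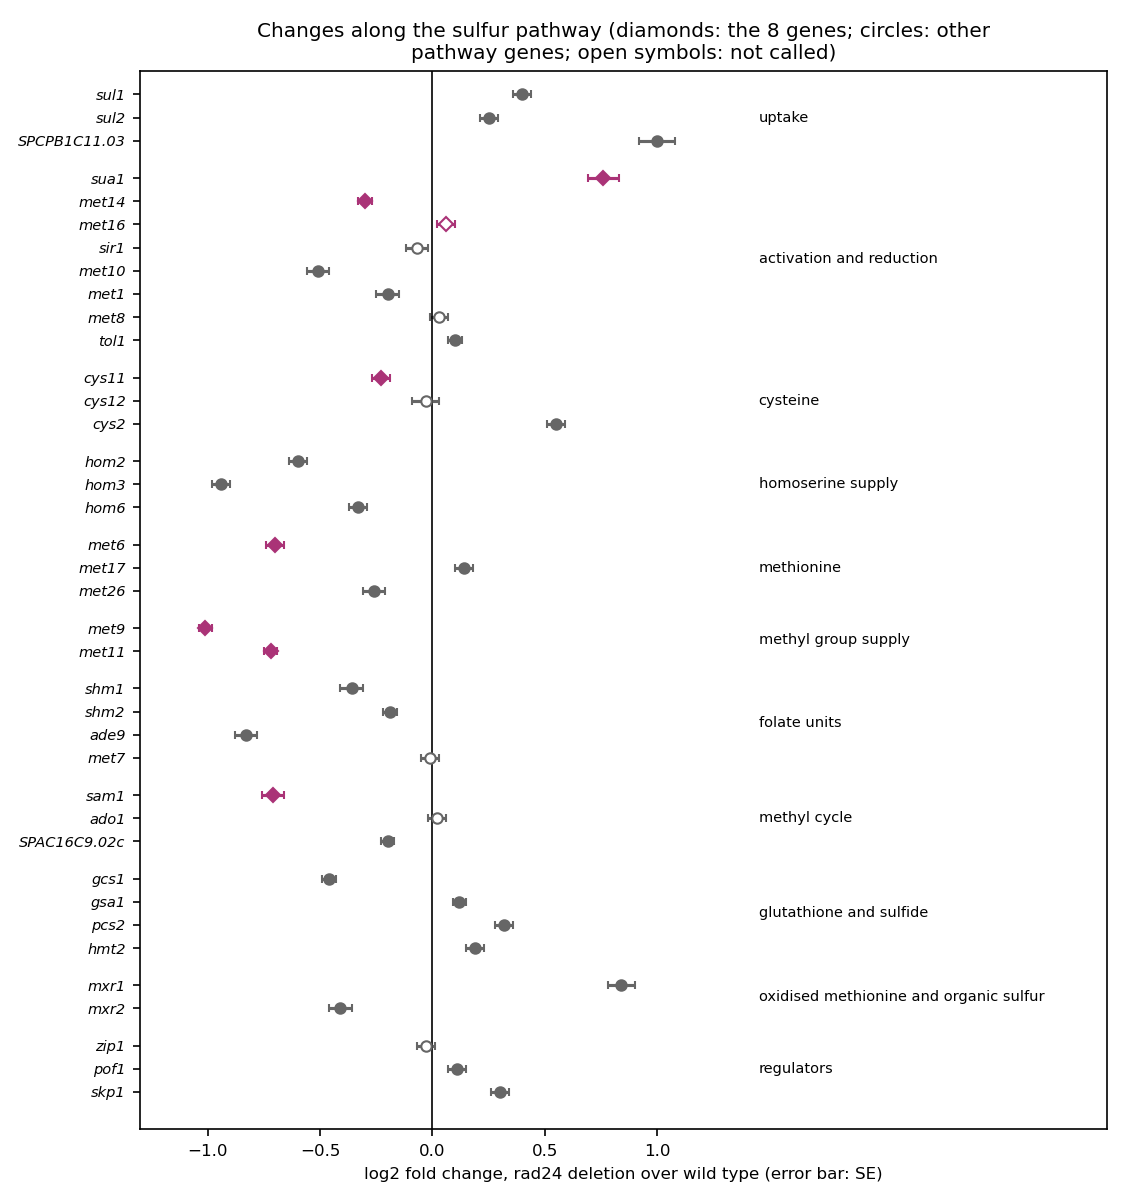
Log2 fold change of the mutant over wild type with its SE for the 8 genes (diamonds) and the 30 other pathway genes (circles), grouped by role from uptake to regulators; open symbols did not pass an edgeR adjusted p of 0.05. Uptake genes and sua1 lie right of 0, and the homoserine genes, met6, met9, met11 and sam1 lie left of it.

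Each of the 8 genes is overlapped on the opposite strand by at least 1 annotated gene in the ASM294v3 reference, which is a later build than the ASM294v2 named for these data. The kit marks strand, but how strand was treated in the counting is not stated, and reads of a gene may therefore be mixed with those of its antisense partner. Of the 12 overlapping genes 4 are in the count table. The antisense RNA gene sua1-antisense-1 was at 1.28 ± 0.343 CPM in wild type against 3.21 ± 0.247 CPM in the mutant (log2 change 1.32 with an SE of 0.21, edgeR adjusted p = 6.81e-05), so it rose with sua1 from a much smaller number of counts. SPAC1782.12c, within which met14 wholly lies, rose from 21.8 ± 1.91 to 44.6 ± 1.26 CPM (log2 change 1.02, edgeR adjusted p = 4.87e-09) while met14 fell. msc1, which overlaps part of met11, fell by 0.73 on the log2 scale (edgeR adjusted p = 1.90e-10), much as met11 did. clr6, which overlaps part of cys11, was not called (log2 change 0.02, edgeR adjusted p = 0.646). The part of these overlaps in the values of the 8 genes was not tested.

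Genes of most similar pattern were looked for by the root mean square distance between mean-centred log2 CPM over the 6 libraries, among 4720 protein-coding genes with a mean of at least 10 CPM and no library at 0. For met9, which had the lowest adjusted p of the 8, the nearest were the translation initiation factor gene tif222 (distance 0.0327), the chromatin remodelling gene sfh1 (0.0332) and the nucleoporin gene nup61 (0.0337). For met16, which had the highest, they were the SAGA complex gene spt20 (0.0132), the DNA helicase gene pfh1 (0.0135) and pop100, which encodes a subunit of RNase P and RNase MRP (0.0186). These distances rest on 6 libraries in 2 groups and describe only similar values.

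The directions of the 8 genes held under each scaling tried (TMM, RLE, upper quartile and library size only). Over all genes the median was 0.02, 0.00, 0.12 and 0.19 under these scalings. The log2 fold change of sua1 ran from 0.74 to 0.93 and that of met9 from -1.03 to -0.84. The call of met16 changed with the scaling. It was called higher with upper quartile factors at 0.15 (edgeR adjusted p = 0.00169) and with library size only at 0.22 (edgeR adjusted p = 8.94e-05), both close to the median of all genes under the same scaling.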

How the data were processed

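Poly(A)+ RNA for 6 libraries was prepared with a kit that keeps strand and read from both ends, per the labels' protocols. The submitters' processing notes name HISAT2 2.1.0, SAMtools, HTSeq 0.10.0, DESeq2 and the build ASM294v2. A table of raw counts for each gene and library was deposited. A second table deposited by the authors gives the log2 value of each fold change, its standard error and test statistic (scores), p-values, and a signal of normalized reads averaged per genotype, per the file headers.

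Of 6987 rows, 1 repeated identifier without counts was dropped. Counts were tested in edgeR 4.0.16 (R 4.3.3, limma 3.58.1) with filterByExpr, which left out 902 genes, TMM factors and the quasi-likelihood test with genotype as the only term. P-values were adjusted over all 6084 tested genes at 0.05. Each SE is the absolute log2 fold change divided by the square root of F. Depth limits precision through counting error, given beside sua1. Near-identical copies can share reads, which was not measured.

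The 8 genes and the lists were chosen with earlier results of these data known. The genes named are the 8, the matched pathway genes (those called and at least 1.5-fold changed, those sharing a reaction and others as examples), and the nearest genes by distance. Of 37 list entries 3 were unmatched, 2 repeated a gene and 2 (str2 and str3) were left out because their descriptions name siderophore transport. Of the 30 kept, 25 were matched by name and 5 through ASM294v3 RefSeq, in which 6833 of 6986 identifiers were found. That reference was used only for names and overlaps, and no sequence was read from it because its build differs. The promoter search planned was not run for the same reason.

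The steps were tested on simulated data. Of 50 genes changed 1.25-fold 80% were recovered, and of 50 changed 1.5-fold 98%. Among the 6058 genes of that fit, 9 unchanged ones were called. Changes smaller than 1.25-fold were not simulated. Within a genotype, counts of each pair of libraries differed beyond sampling noise (chi-square over its degrees of freedom, 2.41 to 7.77). Alternatives were RLE, upper quartile and library size scaling, no filter, limma-voom, DESeq2 1.42.0, a stricter filter (at least 50 counts in all libraries of either genotype), protein-coding genes only, the replicate number as a block and leaving out each library.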

Additional observations from a re-analysis of the deposited data

How the results depend on the processing

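Of the 8 genes, sua1, met14, met6, met9, met11 and sam1 kept direction and call under every alternative fit listed above. The call of cys11 was lost with library size only (-0.06), and met16 was called with upper quartile factors (0.15) and library size only (0.22). Leaving out each library in turn gave log2 fold changes of 0.67 to 0.83 for sua1, -0.32 to -0.28 for met14, 0.01 to 0.08 for met16, -0.26 to -0.17 for cys11, -0.72 to -0.66 for met6, -1.02 to -0.99 for met9, -0.74 to -0.71 for met11 and -0.73 to -0.69 for sam1. It gave 4547 to 4727 genes called, 7 of the 8 genes called each time and 24 to 25 of the pathway list. The log2 ratio differences ran from 0.25 to 0.31 for met11 to met9 and from 0.99 to 1.13 for sua1 to met14. Higher genes made up more of the calls with library size only (3267 higher, 1607 lower) than with TMM (2491 and 2275), and upper quartile factors gave 2966 and 1885.

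Some pathway genes that were not called with TMM changed sign. With upper quartile factors and library size only, the median of all genes was 0.12 and 0.19, against 0.02 with TMM. Under these scalings sir1 had 0.02 and 0.09, cys12 0.07 and 0.13, met7 0.09 and 0.16, and zip1 0.07 and 0.13. Of these, cys12, met7 and zip1 passed the test with library size only, as did met8 (0.20) and ado1 (0.19), and met7, met8 (0.13) and ado1 (0.12) also passed with upper quartile factors. met7 was at 0.00 with protein-coding genes only. Over the leave-one-out fits met8 ran from -0.01 to 0.07, cys12 from -0.09 to 0.04, met7 from -0.03 to 0.02 and ado1 from -0.01 to 0.05, while sir1 was called at -0.13 without wild type replicate 3 (adjusted p = 0.0319). The cause was not tested.

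Deviations of same-numbered libraries were hardly correlated across genes (Pearson r -0.00136, -0.00287 and 0.0503). The value of 0.0503, for replicate 3, was the highest of any wild type and mutant pair. With 3 libraries per genotype this cannot exclude a shared batch, and the titles do not say what the numbers mark. With the replicate number as a block, 4753 genes were called against 4766, with 7 of the 8 genes and 24 of the pathway list. The block gave log2 fold changes of 0.77 for sua1 and -0.23 for cys11. With it the edgeR adjusted p of sua1 was 8.27e-11 against 4.40e-07 without, and that of cys11 0.000134 against 0.000355. For met16 it was 0.197 against 0.171. Not every wild type library correlated best with the mutant library of its own number.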

Other observations

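Further genes with a sulfur-related description were looked up after their values were seen. The predicted arylsulfatase gene SPBPB10D8.02c fell from 6.60 ± 2.04 to 0.424 ± 0.244 CPM (means with SD, n = 3, log2 change -3.94, edgeR adjusted p = 7.30e-08). The other predicted sulfate transporter genes, SPAC24H6.11c and SPCC320.05, had log2 fold changes of 0.14 and 0.13 (edgeR adjusted p = 0.00358 and 0.0219), and the libraries of SPCC320.05 overlapped between the genotypes. For SPCC320.05 the authors' deposited table gives an adjusted p of 0.3.

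Around S-adenosylmethionine, the decarboxylase gene spe2, which leads to polyamines, fell from 269.6 ± 6.62 to 204 ± 2.21 CPM (log2 change -0.40, edgeR adjusted p = 7.05e-08). The predicted adenosylhomocysteinase gene SPBC8D2.18c had a log2 fold change of -0.17 (edgeR adjusted p = 0.00419). The genes of the predicted mitochondrial S-adenosylmethionine carriers went opposite ways, with log2 fold changes of -0.77 for pet801 and 0.29 for pet802 (edgeR adjusted p = 1.17e-07 and 0.000119). The methionine-tRNA ligase gene rar1 fell from 408 ± 10.8 to 209.7 ± 7.30 CPM (log2 change -0.96, edgeR adjusted p = 4.33e-11). The glutamate-cysteine ligase regulatory gene gcs2 was not called (log2 change 0.01, edgeR adjusted p = 0.776). Also looked up, utr4 rose from 51.8 ± 2.20 to 69.6 ± 1.39 CPM (log2 change 0.43, edgeR adjusted p = 9.41e-07). SPAPB17E12.12c rose from 18.9 ± 0.433 to 24.7 ± 0.335 CPM (log2 change 0.39, edgeR adjusted p = 6.89e-05). For SPAPB17E12.12c the authors' deposited table gives an adjusted p of 0.247.

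In wild type, 5 of the 8 genes had their lowest level in replicate 3, and in the mutant 5 of 8 had theirs in replicate 3. The share over all tested genes was not worked out, so these counts do not set the 8 genes apart. sua1 and met6 were lowest there in both genotypes.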
